A study of Mus musculus with 8 samples.

Results

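The genes described here are those of the mouse major histocompatibility complex (MHC), which carry symbols beginning with H2-, together with 12 genes of antigen presentation that lie inside or outside it: B2m, Tap1, Tap2, Tapbp, Psmb8, Psmb9, Psmb10, Psme1, Psme2, Cd74, Ciita and Nlrc5. They were chosen by symbol alone, and 54 of the 22609 genes in the count table matched. Of these, 40 belong to class I, 12 to class II, and 2 (H2-Ke2 and H2-Ke6) carry an H2 symbol without encoding an MHC protein. Members with at least 10 counts in 4 or more of the 8 libraries were described one by one. This left 21 class I genes, 9 class II genes and the 2 others, or 32 in all.

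Renal cortex was taken from male C57BL6 mice, 4 aged and 4 young, for RNA-Seq, with 1 library per mouse and no treatment. The labels give an age of 30 months for the aged and 5 months for the young group, while the study's methods state a somewhat higher mean age for the aged group. Between 14820804 and 19821429 read pairs per library were counted on genes. Levels are given as CPM, the counts of a gene scaled to library size, after scaling between libraries by the trimmed mean of M values (TMM). Cortex is a mixture of tubules, glomeruli, vessels and immune cells, so that more cells of a type and more RNA per cell cannot be told apart in these data.

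Class I molecules consist of a heavy chain and the light chain beta-2 microglobulin, and they display peptides from inside the cell to CD8 T cells and natural killer cells. The peptides are cut by the proteasome, whose catalytic subunits can be exchanged for those of the immunoproteasome, and are carried into the endoplasmic reticulum by the TAP transporter. Class II molecules are alpha and beta chains guarded by the invariant chain Cd74, and they display peptides taken up from outside the cell to CD4 T cells. In kidney, class I is made by nearly all cells, and class II chiefly by resident dendritic cells and macrophages, with tubular cells able to make it after exposure to interferon gamma. Nlrc5 is the transactivator of class I genes and Ciita that of class II genes.

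Both act through a promoter module that includes an inverted CCAAT element, the Y box, and class I promoters also hold an NF-kappa B site. Upstream sequences were taken from RefSeq (GRCm38.p6), each found once in mm9, and are given from 250 bases before the transcription start to 20 bases after it. A RefSeq promoter was found for 15 of the 21 class I and 6 of the 9 class II genes. For H2-DMa that window (chromosome 17, 34259527 to 34259826) lies apart from the gene as annotated in mm9, which begins at 34272127. The search of H2-DMa therefore does not describe its annotated start. The class II gene Cd74 was not searched, since its chromosome (18) was not read. The 4 motifs searched on both strands were the kappa B core GGGGATTCC, the Y box core CTGATTGG, the interferon response core GAAANNGAA and the X1 box core CCNAGNAAC, and no 2 of their matches overlapped. Matches are in capitals in the following sequences. H2-K1 and H2-D1 are shown as the most abundant heavy chains, H2-Gs10 and H2-Q2 as the heavy chains that passed the test with age, Tap1 for its start shared with Psmb9, and H2-Eb1 for class II.
H2-K1 (mm9 chr17:34137273-34137542, minus strand): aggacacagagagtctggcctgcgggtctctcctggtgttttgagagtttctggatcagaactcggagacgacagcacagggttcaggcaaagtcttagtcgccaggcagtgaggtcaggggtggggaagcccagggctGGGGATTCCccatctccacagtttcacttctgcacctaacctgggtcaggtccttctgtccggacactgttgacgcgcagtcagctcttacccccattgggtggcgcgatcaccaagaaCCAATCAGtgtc
H2-D1 (mm9 chr17:35399789-35400058, plus strand): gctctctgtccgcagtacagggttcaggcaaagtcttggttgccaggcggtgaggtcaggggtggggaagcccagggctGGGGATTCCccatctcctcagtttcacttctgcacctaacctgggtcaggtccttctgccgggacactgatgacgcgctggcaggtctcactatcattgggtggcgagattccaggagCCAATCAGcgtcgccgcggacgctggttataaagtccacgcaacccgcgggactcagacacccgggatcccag
H2-Gs10 (mm9 chr17:35516312-35516581, plus strand): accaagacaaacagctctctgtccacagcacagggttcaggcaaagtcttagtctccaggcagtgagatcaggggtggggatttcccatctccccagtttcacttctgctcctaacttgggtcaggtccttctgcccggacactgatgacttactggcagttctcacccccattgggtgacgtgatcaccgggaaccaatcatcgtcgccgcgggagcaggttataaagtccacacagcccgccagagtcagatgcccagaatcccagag
H2-Q2 (mm9 chr17:35479002-35479271, plus strand): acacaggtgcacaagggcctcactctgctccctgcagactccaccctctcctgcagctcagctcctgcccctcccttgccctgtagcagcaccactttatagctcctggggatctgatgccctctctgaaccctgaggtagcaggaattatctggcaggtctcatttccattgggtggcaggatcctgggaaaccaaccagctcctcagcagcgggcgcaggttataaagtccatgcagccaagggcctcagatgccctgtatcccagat
Tap1 (mm9 chr17:34324251-34324520, plus strand): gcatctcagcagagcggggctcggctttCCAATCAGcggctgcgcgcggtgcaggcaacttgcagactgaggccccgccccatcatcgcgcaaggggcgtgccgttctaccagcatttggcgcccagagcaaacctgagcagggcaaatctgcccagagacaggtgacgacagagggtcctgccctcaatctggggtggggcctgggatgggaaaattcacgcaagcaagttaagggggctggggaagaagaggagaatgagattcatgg
H2-Eb1 (mm9 chr17:34442562-34442831, plus strand): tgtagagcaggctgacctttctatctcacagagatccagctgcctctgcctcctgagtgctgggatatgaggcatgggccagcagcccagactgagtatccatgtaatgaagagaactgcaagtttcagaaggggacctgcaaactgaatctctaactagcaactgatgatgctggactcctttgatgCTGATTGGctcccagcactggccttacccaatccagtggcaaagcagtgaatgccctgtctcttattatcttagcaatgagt

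In these sequences H2-K1 and H2-D1 hold the kappa B core, which begins 111 and 171 bases before the start. Both also hold the Y box core, read on the opposite strand. It begins 53 bases before the annotated start in H2-D1 but 8 bases past it in H2-K1. In H2-Gs10 and H2-Q2 none of the 4 motifs matched, which says only that these exact letters are not in the window searched, which reached 50 bases past the start. Over the members whose promoter was searched, the kappa B core was found in 3 class I genes (H2-K1, H2-D1 and H2-Q6) and in 0 class II genes. Of the 32851 RefSeq promoters, 0.25% hold it. The bases around it are nearly the same in H2-K1, H2-D1 and H2-Q6, so these are not independent finds, and the motif was searched as one known from class I promoters. The Y box core was found in 6 class I genes (H2-K1, H2-D1, H2-Q6, H2-T23, Psmb9 and Tap1) and in 2 class II genes (H2-Aa and H2-Eb1), where 4.1% of all promoters hold it. Psmb9 and Tap1 are transcribed away from each other from the same stretch of chromosome 17, and their Y box is 1 site counted under both genes. The interferon response core was found in B2m, H2-T23 and Psme1 (8.56% of all promoters) and the X1 box core in the class II genes H2-DMb1 and H2-Ob (5.27%). These matches are descriptions of letters and not of binding.

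Aged mice 1 and 4 stood apart from the other libraries. Aged mouse 1 lay at -71.5 on the first principal component of all genes, where the other aged mice lay between -16.3 and 2.26 and the young mice between 21.6 and 26.2. The summed level of 8 proximal tubule marker genes was 13777 CPM in aged mouse 1, at most 28134 CPM in aged mice 2 and 3, and 41039 CPM in aged mouse 4. It was between 43994 and 50531 CPM in the young mice. A large part of this sum was the single gene Kap, at 929 to 14296 CPM in the aged and 18460 to 24978 CPM in the young mice. Of the markers of collecting duct and medulla, Slc14a2 had 89.2 CPM in aged mouse 1 and 26.7 CPM in young mouse 1. It had 0 to 0.327 CPM in the other mice. Aqp4 had 187 CPM in aged mouse 1 and 54.9 CPM in young mouse 1, against 3.15 to 40.7 CPM in the others. Whether the samples differ in their share of medulla was not tested. Aged mouse 4 was the highest of the 8 mice in all 17 genes of a list of type I interferon stimulated genes, which summed to 379 CPM in it, 152 to 203 CPM in the other aged mice and 164 to 198 CPM in the young mice. A log2 fold change of a member that turned, or moved by over 1.5 times, without aged mouse 1 or aged mouse 4 is given below with and without that mouse. Changes with age were tested in edgeR on 13944 genes, and a call required both a fold change above 1.5 and, after Benjamini-Hochberg adjustment, a p below 0.05.

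Of the class I genes, 19 of 21 had a higher fitted level in aged mice, and 2 of them, H2-Q2 and H2-Gs10, passed the test. Their median log2 fold change was 0.41, beside 0.03 over all genes tested, of which 54.1% lay above 0. Of all genes, 1.17% were called higher and 0.889% lower in aged mice. Of the 8 class II genes that could be tested, 7 had a higher fitted level (median log2 fold change 0.32) and 0 passed. At an unadjusted edgeR p below 0.05, 10 of 21 class I and 3 of 8 class II genes were higher, where 13.4% of all genes were, and 0 of either class were lower, where 12.1% of all genes were. All 4 aged mice exceeded all 4 young mice in 8 of 21 class I genes and 1 of 8 class II genes, an order found in 8.85% of all genes. Members of a class share cells and regulators and are not independent of each other, and H2-Q2 passed the filter on low counts only through the aged libraries.

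**Figure D1:**
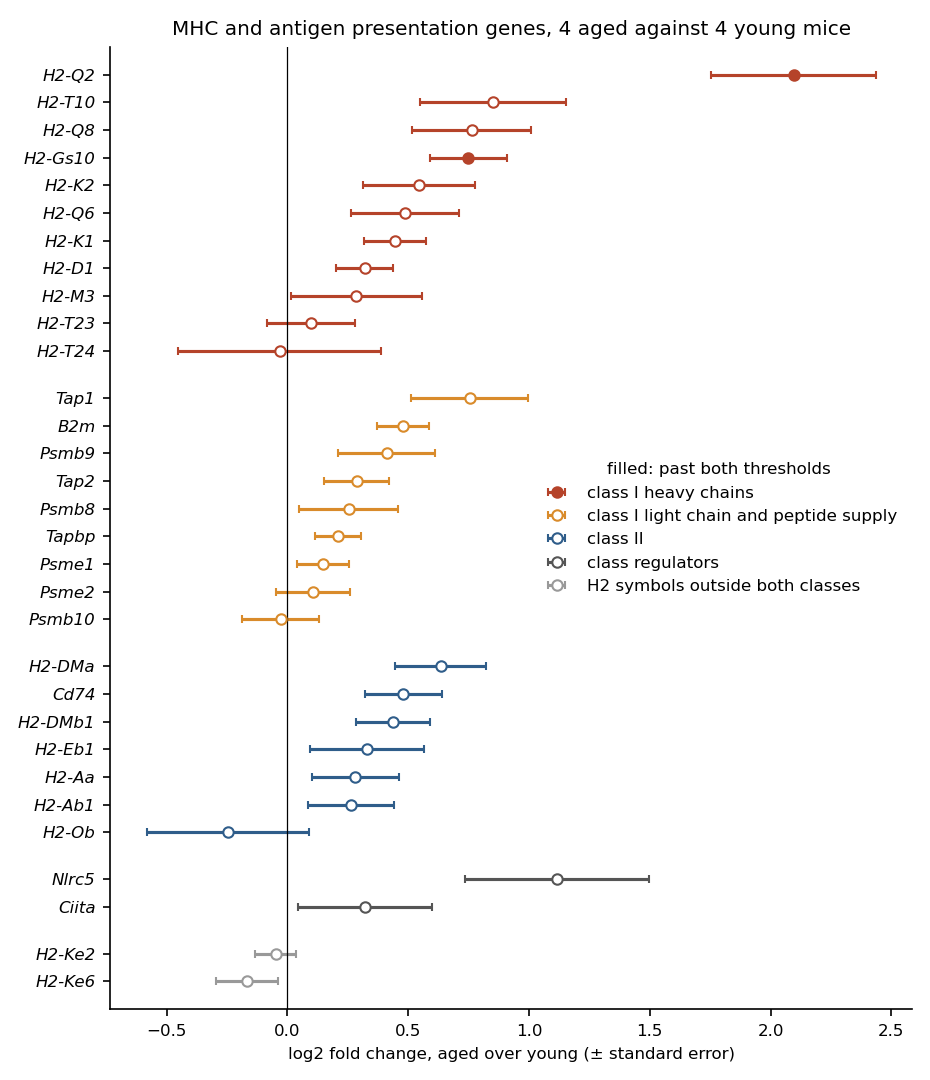
Log2 fold change of aged over young mice with its standard error (horizontal axis) for the 31 members that were tested (vertical axis), coloured by role, with filled points for genes past both thresholds. Of the class I genes 19 of 21 lie to the right of 0 and 2 are filled (H2-Q2 and H2-Gs10), and 7 of 8 class II genes lie to the right with 0 filled.

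Without aged mouse 4, 18 of 21 class I genes lay above 0 (53.8% of all genes did), with a median log2 fold change of 0.27. H2-Q2 and H2-Gs10 were called again, where 2.34% of all genes were called higher. As before, H2-Q2 was tested only through the aged libraries, both here and without aged mouse 1. In that fit 7 class I and 2 class II genes had an unadjusted edgeR p below 0.05 (14.7% of all genes), and the remaining aged mice all exceeded the young mice in 8 class I and 1 class II genes (13.0% of all genes). Without aged mouse 1, all 21 class I genes lay above 0 (52.5% of all genes did), with a median of 0.48, and the same 2 genes were called (1.61% of all genes were called higher). There 12 class I and 5 class II genes had an unadjusted edgeR p below 0.05 (13.1% of all genes), and the remaining aged mice all exceeded the young mice in 9 class I and 2 class II genes (11.4% of all genes). Class II genes had a median log2 fold change of 0.20 without aged mouse 4 and of 0.48 without aged mouse 1, and 0 were called in either fit.

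The classical heavy chains H2-K1 and H2-D1, the main peptide presenters to CD8 T cells, were the most abundant of their group. H2-K1 (chromosome 17, 34132962 to 34137278) stood at 163, 166, 165 and 232 CPM in aged mice 1 to 4, against 147, 124, 126 and 136 CPM in young mice 1 to 4. All 4 aged mice lay above the young mice, and aged mouse 4 lay far above the other 3. Its log2 fold change was 0.44 (standard error 0.13, edgeR adjusted p = 0.0869), and 0.30 without aged mouse 4 (adjusted p = 0.0643). H2-D1 (chromosome 17, 35399675 to 35404444) had 166, 169, 159 and 216 CPM in the aged and 157, 133, 129 and 150 CPM in the young mice. The groups did not overlap, but aged mouse 3 and young mouse 1 nearly met. The log2 fold change of H2-D1 was 0.32 (standard error 0.12, edgeR adjusted p = 0.138), and 0.21 without aged mouse 4. Per kilobase of transcript, the level of H2-K1 was 113 CPM in aged and 83.1 CPM in young mice, and that of H2-D1 84.4 and 67.6 CPM.

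**Figure D2:**
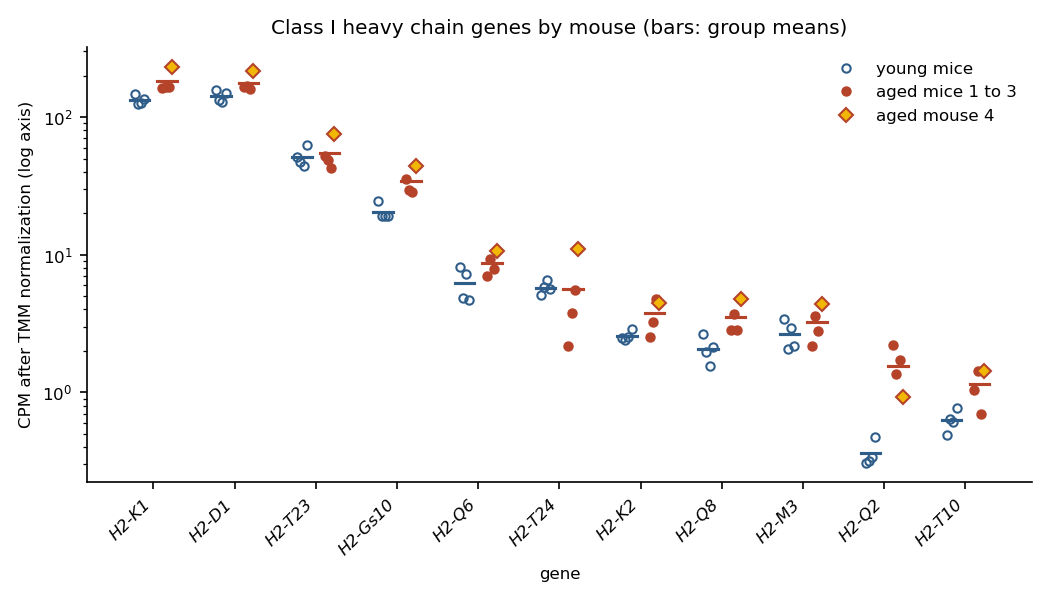
Level of the 11 class I heavy chain genes in each mouse, in CPM on a log axis, with young mice as open circles, aged mice 1 to 3 as filled circles, aged mouse 4 as a diamond and bars at the group means. Aged mouse 4 is the highest of all 8 mice in 8 of the 11 genes, but has the lowest aged value of H2-Q2 (0.926 CPM).

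H2-Gs10, which the current gene table calls H2-Q4, encodes a heavy chain of the nonclassical Q region and rose with age. It lies on chromosome 17 from 35516562 to 35522235. Its level was 35.7, 29.3, 28.3 and 44.2 CPM in aged mice 1 to 4, against 24.7, 19.0, 19.2 and 19.0 CPM in young mice 1 to 4. Young mouse 1 was the highest young mouse by a clear gap, and still lay below every aged mouse. The mean was 34.4 ± 7.33 CPM in aged mice (SD, n = 4) against 20.5 ± 2.78 CPM in young mice (SD, n = 4), a log2 fold change of 0.75 (standard error 0.16, edgeR adjusted p = 0.0460). The call was lost, with an adjusted p of up to 0.134, when aged mouse 2, aged mouse 3 or any 1 young mouse was left out and with the replicate number as a block (adjusted p = 0.0615), and over 16 other fits its log2 fold change ranged from 0.60 to 0.85. Of the 100-nt windows of its transcript, 12.2% had a copy elsewhere in mm9 of at least 98% identity, so that its counts are uncertain to that extent.

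H2-Q2, a neighbouring gene of the same region (chromosome 17, 35479187 to 35483707), showed the largest fold change of the members tested, at a low level. It had 45, 21, 32 and 17 counts in aged mice 1 to 4, against 5, 6, 5 and 8 in young mice 1 to 4. Every aged mouse had more counts than every young mouse, with the fewest aged counts in aged mouse 4. H2-Q2 entered the test only through the aged libraries, the group in which it was high. Its level was 1.55 ± 0.543 CPM in aged mice (SD, n = 4), against 0.36 ± 0.0765 CPM in young mice (SD, n = 4), a fold of 4.27 (log2 fold change 2.09, standard error 0.34, edgeR adjusted p = 0.0267). Without aged mouse 4 the log2 fold change was 2.28 (adjusted p = 0.00607). Over the other fits the adjusted p was lowest with DESeq2 (0.000532) and highest without young mouse 4 (0.101), and the call was lost without aged mouse 3, without any 1 young mouse and with the replicate block (adjusted p = 0.0599). Windows with a near-identical copy were 0% of its transcript.

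The other 7 heavy chains past the filter did not pass the test. H2-T23, which encodes the Qa-1 chain seen by inhibitory receptors of natural killer cells, stood at 54.9 ± 14.6 CPM in aged mice (SD, n = 4) against 51.3 ± 7.93 CPM in young mice (SD, n = 4). Its log2 fold change of 0.10 became -0.10 without aged mouse 4. H2-M3, which presents formylated peptides such as those of bacteria, had an aged to young log2 fold change of 0.29 (standard error 0.27), which became 0.10 without aged mouse 4 and 0.44 without aged mouse 1. H2-Q8 had 0.76 (standard error 0.25, edgeR adjusted p = 0.106), with every aged mouse above every young mouse. H2-Q6, H2-K2 and H2-T10 had log2 fold changes of 0.49, 0.55 and 0.85 with overlapping groups, and 15.1% of the windows of H2-Q6 and 42.7% of those of H2-T10 had a near-identical copy. H2-T24 varied most among the aged mice, with 2.16, 3.77, 5.56 and 11.1 CPM in aged mice 1 to 4 beside 5.05 to 6.53 CPM in the young mice. The aged mice thus lay on both sides of the young ones, and the log2 fold change of H2-T24 moved from -0.03 to -0.59 without aged mouse 4 and to 0.25 without aged mouse 1.

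A sum over the 11 heavy chains does not depend on how the counted pairs were divided among these genes. It was 437, 440, 421 and 606 CPM in aged mice 1 to 4, against 403, 341, 340 and 386 CPM in young mice 1 to 4. All aged mice lay above all young mice, and aged mouse 4 lay far above the other aged mice. The ratio of the means was 1.29, and 75.2% of the sum came from H2-D1 and H2-K1 together. On the log2 scale the ratio was 0.37 with all mice and 0.23 without aged mouse 4.

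Another 19 class I heavy chain genes were below the filter, and 11 of them had 0 counts in every library, which allows at most 3 counts, or 0.151 to 0.202 CPM, in a library. Among these are 6 genes of the H2-M10 family, which are known from the vomeronasal organ, and also H2-M9, H2-Q1, H2-Q7, H2-Q9 and H2-T9. Near-identical copies covered 35.9% of the windows of H2-Q7 and 42.0% of those of H2-T9, and read pairs with several alignments were left out of gene counts, so that these 0 counts do not show that the genes were silent. The part of such copies in them was not tested. H2-Q10, known as a secreted heavy chain made in liver, had 85 counts over the aged and 16 over the young libraries. Aged mice 1 to 4 had 31, 26, 7 and 21 counts of it and young mice 8, 0, 3 and 5. It was not tested, and aged mouse 3 lay among the young mice.

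The light chain B2m (chromosome 2, 121973422 to 121978819) was the most abundant member. It stood at 215, 260, 245 and 286 CPM in aged mice 1 to 4, against 203, 168, 168 and 183 CPM in young mice 1 to 4. All aged mice exceeded all young mice, with aged mouse 4 highest. The mean was 252 ± 29.5 CPM in aged mice (SD, n = 4) against 180 ± 16.7 CPM in young mice (SD, n = 4), a log2 fold change of 0.48 (standard error 0.11, edgeR adjusted p = 0.0525). This is a fold of 1.39, under the threshold of 1.5, and its log2 fold change was at most 0.58 over 16 other fits. Without aged mouse 1 the adjusted p was 0.0196, and without aged mouse 4 it was 0.0526. Per kilobase of transcript, the level of B2m was 293 CPM in aged mice, above that of any single heavy chain.

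Peptide transport and loading genes did not pass the test. Tapbp, the tapasin that bridges TAP and the empty class I molecule, had 120, 108, 96.8 and 125 CPM in the aged and 98.1, 99.6, 89.0 and 102 CPM in the young mice. Aged mouse 3 lay among the young mice, and the log2 fold change was 0.21 (standard error 0.09, edgeR adjusted p = 0.205). Tap1, a subunit of the TAP transporter, had 18.1, 11.5, 10.3 and 22.7 CPM in the aged and 10.3, 9.36, 8.50 and 8.98 CPM in the young mice. Aged mice 1 and 4 were far above all others, while aged mouse 3 and young mouse 1 met. The log2 fold change of Tap1 was 0.75 (standard error 0.24, edgeR adjusted p = 0.106), and 0.52 without aged mouse 4. Its partner Tap2 had an aged to young log2 fold change of 0.29 (standard error 0.13, edgeR adjusted p = 0.215), with every aged mouse above every young mouse by a margin within rounding at 20.5 CPM in aged mouse 3 and young mouse 3. The log2 fold change of Tap2 was 0.15 without aged mouse 4.

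**Figure D3:**
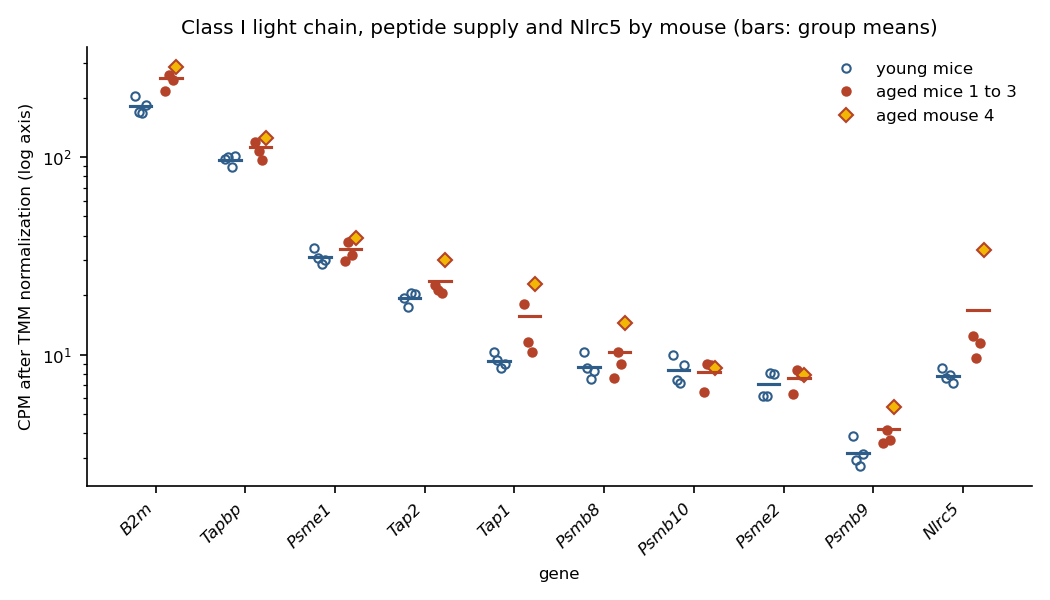
Level of B2m, the peptide supply genes and Nlrc5 in each mouse, in CPM on a log axis, with young mice as open circles, aged mice 1 to 3 as filled circles, aged mouse 4 as a diamond and bars at the group means. In Nlrc5 aged mouse 4 (33.9 CPM) stands apart from aged mice 1 to 3 (9.63 to 12.4 CPM), and in Psmb10 and Psme2 the groups overlap widely.

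The immunoproteasome subunits Psmb8, Psmb9 and Psmb10 had log2 fold changes of 0.25 (standard error 0.21), 0.41 (standard error 0.20) and -0.03 (standard error 0.16), and 0 of the 3 passed the test. Without aged mouse 4 that of Psmb8 was 0.04 (edgeR adjusted p = 0.883), that of Psmb9 0.27 and that of Psmb10 -0.05. Leaving out aged mouse 1 gave 0.07 for Psmb10. The activator subunits Psme1 and Psme2 had log2 fold changes of 0.15 and 0.11, with 0.08 for Psme1 without aged mouse 4 and 0.19 for Psme2 without aged mouse 1. For Psme2, 80.5% of the windows had a near-identical copy in mm9, so its counts are uncertain. Each inducible subunit replaces 1 constitutive subunit in the catalytic core, so the ratio of the pair within a library was compared, which needs no scaling between libraries. The ratio of Psmb8 to Psmb5 was 0.377, 0.332, 0.302 and 0.500 in aged mice 1 to 4, against 0.260, 0.219, 0.198 and 0.209 in young mice 1 to 4. The 4 aged mice exceeded all young mice. The mean ratio was 0.378 ± 0.0871 in aged mice (SD, n = 4) against 0.221 ± 0.0271 in young mice (SD, n = 4). The fold was 1.68 (p = 0.0286 in a two-sided exact permutation test, the lowest value possible with these group sizes, and p = 0.0857 adjusted over the 3 ratios). Without aged mouse 4 the log2 difference was 0.61 in place of 0.75.

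Psmb9 to Psmb6 had a fold of 1.39 (exact permutation p = 0.0571) and Psmb10 to Psmb7 a fold of 1.22 (exact permutation p = 0.0857), both with an adjusted p of 0.0857 and with overlapping groups. In both pairs young mouse 1 was the highest young mouse. The constitutive subunits themselves had lower fitted levels in aged mice, with log2 fold changes of -0.51 for Psmb5 (edgeR adjusted p = 0.0659), -0.06 for Psmb6 and -0.30 for Psmb7 (edgeR adjusted p = 0.0898). A list of 10 proteasome genes had 10 of 10 log2 fold changes below 0 (median -0.24), where 54.1% of all genes lay above 0. It was written with earlier results of these data known. Besides Psmb5, Psmb6 and Psmb7 it holds core subunits of both proteasome forms (Psma1, Psma7, Psmb1 and Psmb4). It also holds the activators Psme3 and Psme4 and the assembly factor Pomp, so it does not describe the constitutive form alone. Of the list 0 were called, and 6 had an unadjusted edgeR p below 0.05 (12.1% of all genes were lower at that p). The summed level of the list was 837 to 1061 CPM in the aged and 1131 to 1173 CPM in the young mice, lowest in aged mouse 1.

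**Figure D4:**
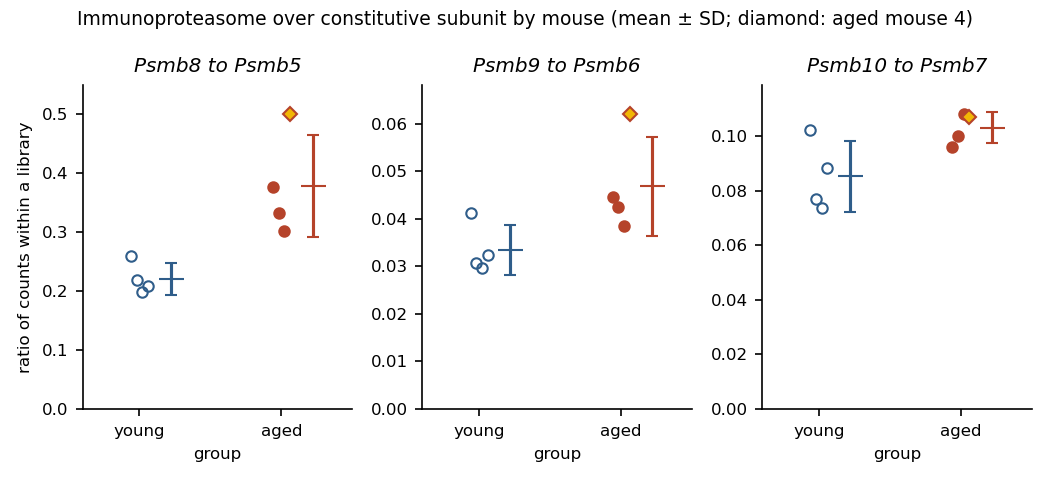
Ratio of counts of each immunoproteasome subunit to its constitutive counterpart within a library (vertical axes, starting at 0) for the 4 young and 4 aged mice, with the mean and SD beside the points and a diamond for aged mouse 4. The groups are apart for Psmb8 to Psmb5 (0.302 to 0.500 against 0.198 to 0.260) and overlap for the other 2 ratios.

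The class I transactivator Nlrc5 stood at 12.4, 9.63, 11.4 and 33.9 CPM in aged mice 1 to 4, against 8.51, 7.56, 7.89 and 7.15 CPM in young mice 1 to 4. All aged mice lay above the young mice, and aged mouse 4 lay 1.61 above the mean of the other aged mice on the log2 scale. Its log2 fold change was 1.12 (standard error 0.38, edgeR adjusted p = 0.118), and 0.52 without aged mouse 4 (adjusted p = 0.0545). With DESeq2, 4 class I genes were called, which added Nlrc5 (adjusted p = 0.0324) and Tap1 (adjusted p = 0.0387) to H2-Q2 and H2-Gs10. Of the class II genes 1 was called with DESeq2, H2-DMa (adjusted p = 0.0336), and DESeq2 called 3.49% of all genes higher. Aged mouse 4 was the highest of the 8 mice in 16 of 21 class I genes and in 3 of 8 class II genes, where it was highest in 11.2% of all genes.

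Class II genes were led by the invariant chain Cd74, which had 147, 222, 150 and 195 CPM in aged mice 1 to 4, against 152, 121, 107 and 131 CPM in young mice 1 to 4. Aged mice 2 and 4 were above all others, and aged mice 1 and 3 lay just below young mouse 1. The mean was 178 ± 36.4 CPM in aged mice (SD, n = 4) against 128 ± 18.8 CPM in young mice (SD, n = 4), a log2 fold change of 0.48 (standard error 0.16, edgeR adjusted p = 0.112). H2-Aa, the alpha chain of the I-A molecule, had 69.4, 109, 74.4 and 99.1 CPM in the aged and 89.1, 74.9, 56.1 and 69.2 CPM in the young mice. The groups overlapped, again with aged mice 2 and 4 highest, and the log2 fold change was 0.28 (standard error 0.18, edgeR adjusted p = 0.344). Its partner H2-Ab1 and the I-E beta chain H2-Eb1 had log2 fold changes of 0.26 and 0.33 with overlapping groups. That of H2-Ab1 was 0.16 without aged mouse 4. H2-Eb1 moved to 0.18 without aged mouse 4 and to 0.49 without aged mouse 1. The C57BL6 strain lacks a working I-E alpha gene, and H2-Ea-ps had 0 counts in all libraries.

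**Figure D5:**
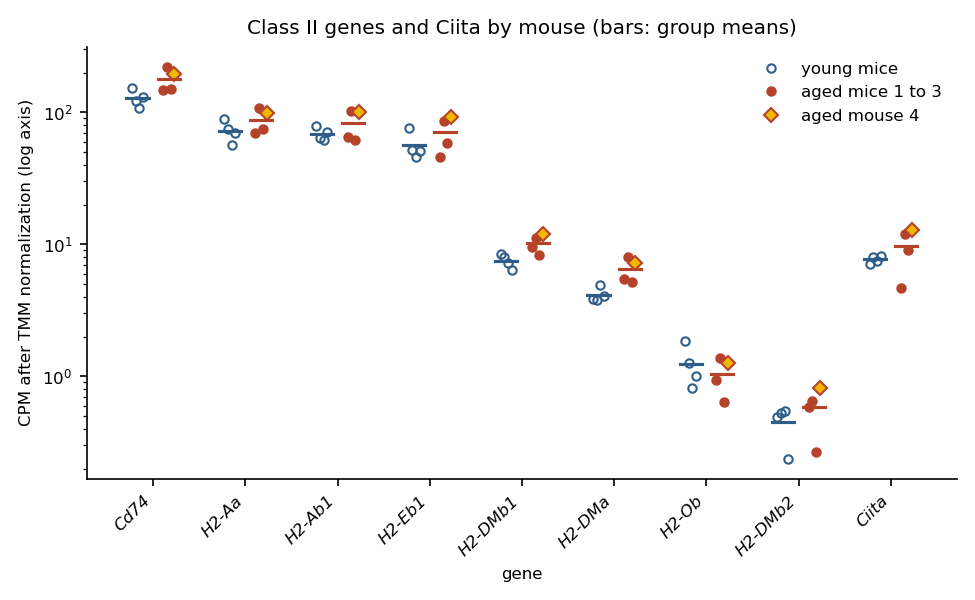
Level of the 8 class II genes and of Ciita in each mouse, in CPM on a log axis, with young mice as open circles, aged mice 1 to 3 as filled circles, aged mouse 4 as a diamond and bars at the group means. The groups overlap in every gene except H2-DMa, where the aged mice lie at 5.18 to 8.07 CPM and the young mice at 3.81 to 4.90 CPM.

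H2-DMa and H2-DMb1 encode the peptide exchanger of the class II pathway. H2-DMa had 5.45, 8.07, 5.18 and 7.19 CPM in the aged and 3.88, 3.81, 4.90 and 4.08 CPM in the young mice. The groups did not overlap, and the log2 fold change was 0.63 (standard error 0.19, edgeR adjusted p = 0.0903). H2-DMb1 had 0.44 (standard error 0.15, edgeR adjusted p = 0.124), with 15.8% of its windows in a near-identical copy. The related H2-DMb2 had 42 counts over the aged and 30 over the young libraries and was too low for the test. H2-Ob, a chain of the DM inhibitor found in B cells, had an aged to young log2 fold change of -0.25 (standard error 0.34), on 75 counts in aged and 83 in young libraries. H2-Oa and H2-Eb2 were below the filter, with 23 and 12 counts in aged and 22 and 5 counts in young libraries. The class II transactivator Ciita had 4.67, 12, 9.03 and 12.9 CPM in aged mice 1 to 4, against 7.15, 8.04, 7.41 and 8.21 CPM in young mice 1 to 4. Aged mouse 1 lay below all young mice and the other 3 aged mice above them. Its log2 fold change was 0.32 (standard error 0.28, edgeR adjusted p = 0.483), 0.14 without aged mouse 4 and 0.55 without aged mouse 1 (adjusted p = 0.0576).

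The 8 class II genes other than Ciita summed to 345, 541, 360 and 506 CPM in aged mice 1 to 4, against 410, 327, 284 and 333 CPM in young mice 1 to 4. The aged mice fell into a lower and a higher pair, and the lower pair lay among the young mice. The ratio of the means was 1.29, the same as for the class I heavy chains, but aged mouse 2, and not aged mouse 4, was highest. Aged mouse 2 had 440 CPM of class I heavy chains, close to aged mice 1 and 3, so the 2 sums did not order the aged mice alike.

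The 2 members outside both classes, H2-Ke2 (a prefoldin subunit, now Pfdn6) and H2-Ke6 (a hydroxysteroid dehydrogenase), lie in the same chromosomal region and had log2 fold changes of -0.05 (standard error 0.08) and -0.17 (standard error 0.13). That of H2-Ke2 was -0.0044 without aged mouse 4, and that of H2-Ke6 was -0.05 without aged mouse 1.

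Other genes of the pathway were taken from lists that were written with earlier results of these data known. Beside them, 54.1% of all genes tested lay above 0 and 1.17% were called higher. At an unadjusted edgeR p below 0.05, 13.4% of all genes were higher and 12.1% lower. Of 17 type I interferon stimulated genes, 16 had higher fitted levels in aged mice (median log2 fold change 0.40), 0 were called and 2 had an unadjusted edgeR p below 0.05. Irf7, a regulator of that response, had 39.2 CPM in aged mouse 4, 4.52 to 9.41 CPM in the other aged mice and 7.55 to 8.86 CPM in the young mice. For interferon gamma signalling, 13 of the 17 genes tested lay above 0 (median 0.22), 0 were called, and their sum was 829 CPM in aged mouse 4, 562 to 597 CPM in the other aged mice and 582 to 624 CPM in the young mice. Thus the mouse with the highest class I levels had the highest levels of both interferon lists, and their part in the class I result was not tested. Ifng was too low for the test. Of 13 transcription factors of MHC genes, 10 lay above 0 and 0 were called. Irf1, an activator of class I genes, had the lowest p of them, at 22.5 ± 1.97 CPM in aged mice (SD, n = 4) against 17.7 ± 1.13 CPM in young mice (SD, n = 4) (log2 fold change 0.35, edgeR adjusted p = 0.0749).

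Of 7 genes of folding, peptide loading and trimming in the endoplasmic reticulum, 6 had log2 fold changes below 0 (median -0.27) with 0 called. This list includes general factors of secreted and membrane proteins (Hspa5, Sec61a1, Calr, Canx and Pdia3), so it is not particular to class I. Pdia3, a disulfide isomerase of the loading complex, had a log2 fold change of -0.51 (edgeR adjusted p = 0.188). Their sum was 1585 CPM in aged mouse 1, at most 2966 CPM in the other aged mice and 3051 to 3479 CPM in the young mice. Of 8 genes tested for class II peptide supply, 5 lay above 0 and 0 were called, and Ctss, a protease that trims the invariant chain, had 0.53 (edgeR adjusted p = 0.134). Of 6 MHC-like genes tested, 5 lay above 0 and 0 were called, among them Cd1d1, a presenter of lipids, with 1.13 (edgeR adjusted p = 0.106). Of 8 co-stimulation and T cell contact genes tested, 7 lay above 0 and 0 were called.

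Markers of immune cells were set beside these results. Of all genes tested, 54.1% lay above 0, 1.17% were called higher and 0.889% lower. The 5 pan-leukocyte genes, of which Ptprc defines the lineage, all had higher fitted levels in aged mice with 0 called, and summed to 94.3 CPM in aged mouse 4, 44 to 72.7 CPM in the other aged mice and 47.3 to 64.3 CPM in the young mice. Of 10 macrophage genes 9 lay above 0, but Csf1r, the receptor for the macrophage growth factor, fell to 31.0 ± 8.38 CPM in aged mice (SD, n = 4) against 62.0 ± 13.9 CPM in young mice (SD, n = 4) (log2 fold change -1.0, edgeR adjusted p = 0.0472). The macrophage list summed to 224 CPM in aged mouse 4, 109 to 157 CPM in the other aged mice and 123 to 181 CPM in the young mice. Of 8 dendritic cell genes tested, 4 lay above 0 and 0 were called, with sums of 17.7 to 29.5 CPM in aged and 22.3 to 28.5 CPM in young mice.

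B cell genes were near the floor, with sums of 3.04 to 5.46 CPM in the aged and 3.9 to 7.07 CPM in the young mice, and Ms4a1, a defining marker of these cells, was too low for the test. All 6 T cell genes tested lay above 0 with 0 called, and summed to 5.45 to 8.55 CPM in aged and 2.6 to 5.67 CPM in young mice. NK cell genes summed to 1.08 to 2.8 CPM in aged and 1.42 to 2.49 CPM in young mice. Plasma cell genes summed to 51.1 to 125 CPM in aged and 22.3 to 34.9 CPM in young mice, and 2 of the 4 genes tested lay above 0. The 1 gene called, Igj, the joining chain of antibodies, rose to 49.4 ± 31.5 CPM in aged mice (SD, n = 4) from 7.90 ± 3.82 CPM in young mice (SD, n = 4) (log2 fold change 2.65, standard error 0.45, edgeR adjusted p = 0.0311). The part of any of these cells in the class I and class II values was not tested. Outside the immune lists, endothelial markers summed to 523 CPM in aged mouse 4, below the 627 to 794 CPM of the other 7 mice, and 0 endothelial genes were called. Aged mouse 4 was also the lowest of the 8 mice in fibroblast and pericyte markers (223 CPM), podocyte markers (315 CPM) and markers of collecting duct and medulla (434 CPM). The last were highest in aged mouse 1 (798 CPM), and 0 genes of these 3 lists were called.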

How the data were processed

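Total RNA of the renal cortex was sequenced with 1 library per mouse (4 aged, 4 young). The authors removed ribosomal RNA, made strand-specific libraries, aligned paired ends to mm9 with TopHat2 and deposited raw counts of read pairs per RefSeq gene, counted by strand with HTSeq. The labels also name CASAVA 1.8.2 and SAMtools. Other versions are not given in the sources used here. Groups came from the labels, and nothing states that libraries differ in more than the mouse.

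The 5 rows that name no gene were left out. They include pairs aligned to several places (34.3% to 39.1% of all rows summed in a library) and pairs on no gene (19.9% to 29.9%). Leaving out the first lowers counts of genes with near-identical copies. A pair may enter that row once per alignment, so these are not shares of the read pairs sequenced. A floor of 3 counts equals 0.151 to 0.202 CPM and covers counting error only.

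Counts were analysed in R 4.3.3 with edgeR 4.0.16 (quasi-likelihood test, TMM, filterByExpr with a minimum count of 10, 13944 genes tested, no covariate, Benjamini-Hochberg over all of them). The standard error is the log2 fold change divided by the square root of F. Ratios were compared by exact permutation (70 orders). Alternatives were DESeq2 1.42.0, limma-voom 3.58.1, other scalings and filters, the replicate number as a block, and each mouse left out in turn. Leaving out mice from the sums, and from the counts other than calls, was chosen after seeing the data. Scripts were tested on simulated data. Copies were sought with BLAST 2.17.0, run from Python 3.11.15. Positions are those of GENCODE for mm9.

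The members and gene lists were chosen with earlier results of these data known. Every member past the filter is named, with values per mouse for genes called and for the 2 most abundant of each group. Tap1, H2-DMa, H2-T24 and H2-Q10 were added after their values were seen. Irf7, Irf1, Pdia3, Ctss and Cd1d1 were also named by choice from the related lists, with their values known. They were not called and were not among the 2 most abundant genes of their lists.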

Additional observations from a re-analysis of the deposited data

Results flagged for a closer look

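Dixon's ratio, the gap of the extreme sample to its neighbour over the range of the group, was computed in 72 groups of 4 mice. It passed the 95% critical value in 5, where chance alone gives about 3.6. Aged mouse 4 was far above the other aged mice in H2-K1 (0.951 of the range), in Nlrc5 (0.887) and in the summed class I heavy chains (0.894), and H2-K1 is part of that sum. Young mouse 1 was far above the other young mice in H2-Gs10 (0.96), and aged mouse 1 was far below the other aged mice in Psmb10 (0.853), at 6.48 CPM beside 8.55 to 8.91 CPM. Without aged mouse 4 the log2 fold change was 0.30 for H2-K1 and 0.52 for Nlrc5. Without young mouse 1 that of H2-Gs10 was 0.85 (edgeR adjusted p = 0.0896), and without aged mouse 1 that of Psmb10 was 0.07.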

How the results depend on the processing

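Over 16 other fits, 2 class I genes were called in each change of scaling, filter or threshold and with limma-voom, and 4 with DESeq2. Class II had 0 in all of these except DESeq2, which called 1. Leaving out 1 mouse at a time gave 0 to 2 class I genes (2 without aged mouse 1 or 4, 1 without aged mouse 2, 0 without aged mouse 3 or any 1 young mouse) and 0 class II genes. Over all genes 287 were called with all mice, 8 to 35 without a young mouse, 119 and 115 without aged mice 2 and 3, 444 on leaving out aged mouse 1, and 733 on leaving out aged mouse 4. The log2 difference of the ratio of Psmb8 to Psmb5 ranged from 0.61 to 0.85, that of Psmb10 to Psmb7 from 0.22 to 0.37, and without young mouse 1 both passed the threshold (exact permutation, adjusted p = 0.0429). With the replicate number as a block 0 class I genes were called (edgeR adjusted p = 0.0599 for H2-Q2 and 0.0615 for H2-Gs10) and 130 genes overall. The numbers were not taken to pair the mice, since nothing in the labels says that they do. The correlations of same-numbered mice were 0.21, 0.04, 0.20 and -0.03. Aged mice 1, 2 and 3 each correlated best with the young mouse of the same number, and aged mouse 4 with young mouse 2. Whether the numbers mark a shared batch was not tested. Scaling to library size only shifted all genes, whose median log2 fold change went from 0.03 to 0.14. The direction turned in genes near 0, given here as log2 fold changes. Under that scaling H2-Ke2 had 0.064, H2-T24 0.055 and Psmb10 0.079. With upper-quartile scaling H2-T24 had 0.00089 and Psmb10 0.0091, and with limma-voom Psmb10 had 0.052. On leaving out 1 mouse at a time, H2-T23 ranged from -0.10 to 0.20, H2-T24 from -0.59 to 0.25, Psmb10 from -0.095 to 0.070 and H2-Ob from -0.40 to 0.0062. The cause was not tested. At these depths, genes with under 10 counts in most libraries were not tested.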
